A study of Mus musculus with 12 samples.

Results

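Solute carriers (the Slc genes) are membrane proteins that move amino acids, sugars, metals, ions, nucleosides and vitamins across the plasma membrane and the membranes of lysosomes, the Golgi and mitochondria. Most work by facilitated diffusion, by exchange or by coupling to an ion gradient, and the family number groups them by sequence and, loosely, by cargo. In macrophages they supply nutrients, empty lysosomes of the products of engulfed cells and handle the metals recovered from red cells. Hepcidin, the liver peptide that controls body iron, acts by binding the iron exporter ferroportin, itself a solute carrier (Slc40a1). The genes described here were chosen by their level in the control cells: they are the 191 Slc genes with a mean log2 expression value of at least 4.87 over the 6 PBS arrays. They were 191 of 371 named Slc genes on the array, organic anion transporters (Slco) not counted. A further 173 lay below that minimum, and 7 carriers tied to iron, cystine or glucose were left out by rule (Slc40a1, Slc11a1, Slc11a2, Slc39a14, Slc7a11, Slc3a2 and Slc2a1).

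The cells were bone marrow-derived macrophages, grown for 7 days from the marrow of wild-type (WT) mice aged 8 to 10 weeks in L cell-conditioned medium, which supplies M-CSF. They were moved to DMEM without supplements for 1 h, given hepcidin or PBS and lysed after 1 h or 3 h, which makes 4 groups of 3 arrays. All groups thus share the change to plain medium shortly before treatment. The labels give the hepcidin dose as 1 µg/ml in one protocol and 10 µg/ml in another, so the dose is not settled, and the second protocol speaks of 1 h only. Whether the 3 samples of a group are different animals, different cultures or different wells is not stated. The p-values therefore reflect the variation among these samples only, and this variation may be technical.

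Array medians lay between 4.84 and 4.94, and arrays of one group correlated at 0.994 to 0.997 over all genes. Of 10 macrophage markers, 8 were on the array by symbol, and all 8 lay above the minimum, with PBS means from 8.98 to 13.01. Markers of other cells were low: 2 of 8 neutrophil, 1 of 7 dendritic cell, 1 of 6 lymphocyte, 0 of 4 erythroid and 2 of 6 fibroblast markers reached the minimum. The mean level of the neutrophil list was 4.15 to 4.34 in the PBS arrays and 4.27 to 4.38 in the hepcidin arrays at 3 h, and no marker of the 5 lists passed the threshold between hepcidin and PBS at either time. The macrophage list held 2 rises and 1 fall at 3 h, Cd14 by 0.80, Spi1 by 0.30 and Mertk with a log2 difference of -1.08. The part of such changes in the results below was not tested.

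Membership used the level in PBS arrays alone, so the values at that edge are a description. The members nearest the minimum were Slc30a3 at 4.97, Slc9a4 at 4.98 and Slc25a33 at 4.99, and the Slc genes just outside were Slc6a20a at 4.866, Slc25a53 at 4.83 and Slc16a11 at 4.82. A gene that is low in PBS and high with hepcidin would not be a member by this rule. Among the 173 Slc genes below the minimum, however, limma called 0 in either hepcidin comparison, with 8 at an unadjusted p under 0.05 at 1 h and 13 at 3 h. Of the 191 members, 5 symbols encode no transporter (Slc2a4rg-ps, Slc4a1ap, Slc7a6os, Slc9a3r1 and Slc9a3r2), and none of these 5 passed the threshold in any comparison. The role groups below follow family numbers and still count them. Slc2a4rg-ps is in the sugar and carboxylate group, Slc7a6os in the amino acid and peptide group, and the rest are in the ion and proton group.

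Hepcidin against PBS at 1 h asked what the peptide changes early. Slc2a6 and Slc31a2 rose, and no member fell. A gene rose or fell where the Benjamini-Hochberg adjusted p of limma, over all 24675 named genes, was under 0.05. These 2 of 191 members are 1.05%, beside 0.559% of all named genes and 1.02% of the 12353 genes that reached the same PBS minimum (0.971% higher and 0.0486% lower). The share of members called was thus near that of other genes at this level. The unadjusted p was under 0.05 for 16 members, and the members' median log2 difference was 0.04 against 0.00 over all genes. The hepcidin and PBS arrays did not overlap for 23 members (12.0%), against 14.8% of the genes at the minimum.

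Slc2a6 encodes GLUT6, a hexose transporter of the lysosomal membrane. Its log2 values at 1 h were 6.95, 6.95 and 6.84 with PBS and 8.26, 8.37 and 8.29 with hepcidin. At 3 h they were 7.38, 7.08 and 7.01 with PBS and 8.46, 8.50 and 8.39 with hepcidin. Every hepcidin array was above every PBS array at both times. The log2 difference was 1.39 ± 0.09 (moderated SE, n = 3 per group, adjusted p = 3.85e-06 by limma), or 2.62-fold, at 1 h and 1.29 ± 0.09 (adjusted p = 2.46e-06), or 2.45-fold, at 3 h. The difference between these effects was -0.10 ± 0.13 (adjusted p = 0.863). Among the 28 members called at 3 h, this was the only gene whose 1 h difference was at least as large as that at 3 h.

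Slc31a2 encodes CTR2, a copper transporter of intracellular membranes related to the copper importer CTR1. It read 10.02, 10.10 and 10.16 with PBS and 10.69, 10.74 and 10.62 with hepcidin at 1 h. At 3 h it read 10.20, 10.14 and 10.24 with PBS and 11.47, 11.63 and 11.62 with hepcidin. The PBS groups lay together and the hepcidin groups formed a lower and a higher level above them. The rise was 0.59 ± 0.07 (adjusted p = 8.37e-04, 1.5-fold) at 1 h and 1.38 ± 0.07 (adjusted p = 1.89e-07, 2.60-fold) at 3 h. Here the effect did differ between the times, by 0.79 ± 0.10 (adjusted p = 0.00272).

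**Figure D1:**
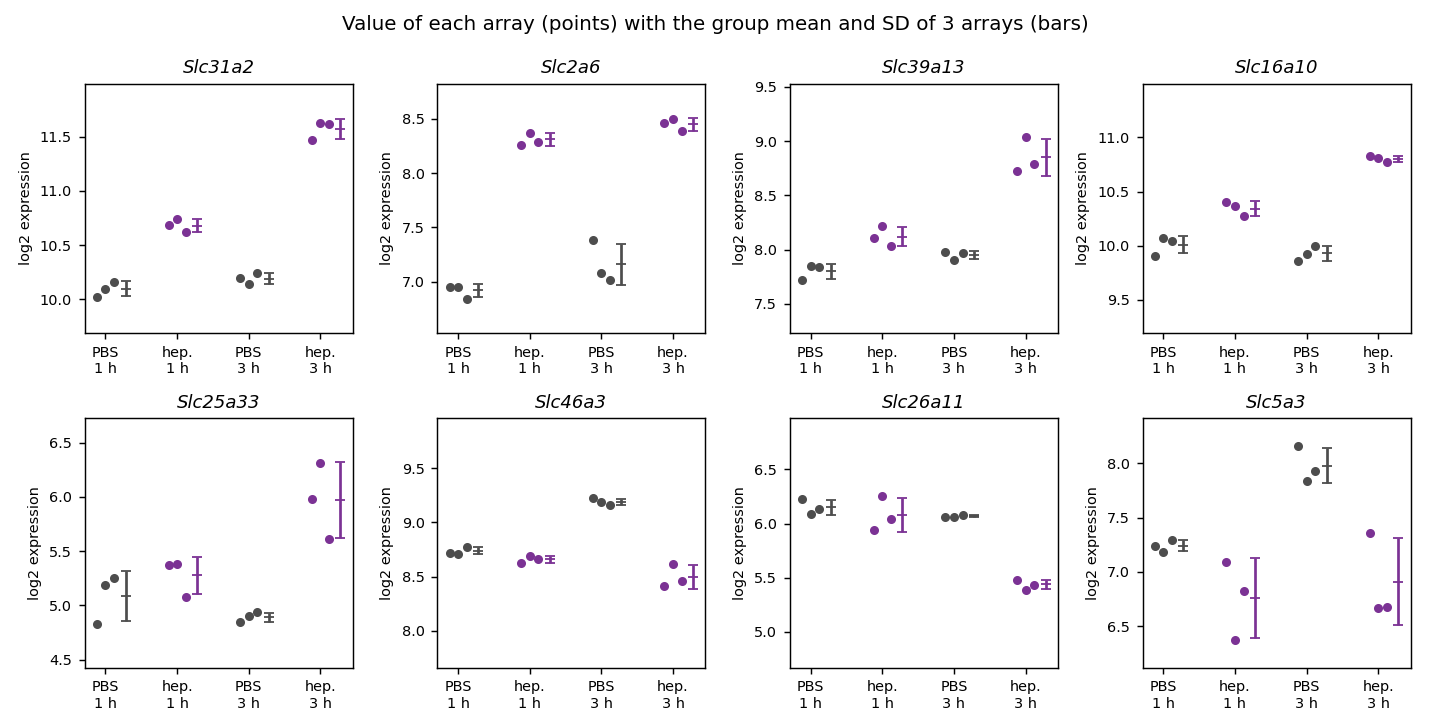
Log2 expression (y axis, the same span of 2.3 units in each panel) of 8 members in the 4 groups (x axis); points are single arrays, and the bar beside them is the mean with the SD of 3 arrays. Slc2a6 is high with hepcidin at both times, the hepcidin arrays of Slc31a2 lie at 10.62 to 10.74 at 1 h and 11.47 to 11.63 at 3 h, and Slc26a11 is low in the hepcidin arrays of 3 h while its other groups lie near 6.

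At 3 h, 15 members rose and 13 fell. The rises were led by Slc31a2, Slc2a6 and Slc25a33 and the falls by Slc5a3 and Slc46a3. The 28 calls are 14.7% of the members, beside 5.33% of all named genes and 9.63% of the genes at the PBS minimum. By direction, 2.80% of all named genes were called higher and 2.53% lower, and 4.75% and 4.88% of the genes at the minimum. The members' median log2 difference was 0.01, against 0.02 over all genes, and 98 members were higher and 93 lower. The groups did not overlap for 74 members (38.7%), beside 31.3% of genes at the minimum, and for all 28 that were called. Only 4 of the 28 changed by at least 2-fold and 11 by at least 1.5-fold. Of the 34 members less than 1 log2 unit above the minimum, 4 rose and 0 fell, and of the other 157, 11 rose and 13 fell. The minimum lies at the level of the array medians (4.84 to 4.94), where a fall may be harder to measure, and this split was not tested.

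Of the 28, 26 were not called at 1 h. All 15 that rose had a 1 h difference above 0, and 8 of the 13 that fell had one below 0. These are each comparison's own values, and an absent call at 1 h does not show that the effects differ. The difference itself passed for 6 of the 28, given with the tests between times. In RNA from whole wells, fewer cells of a type and less RNA per cell cannot be told apart.

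**Figure D2:**
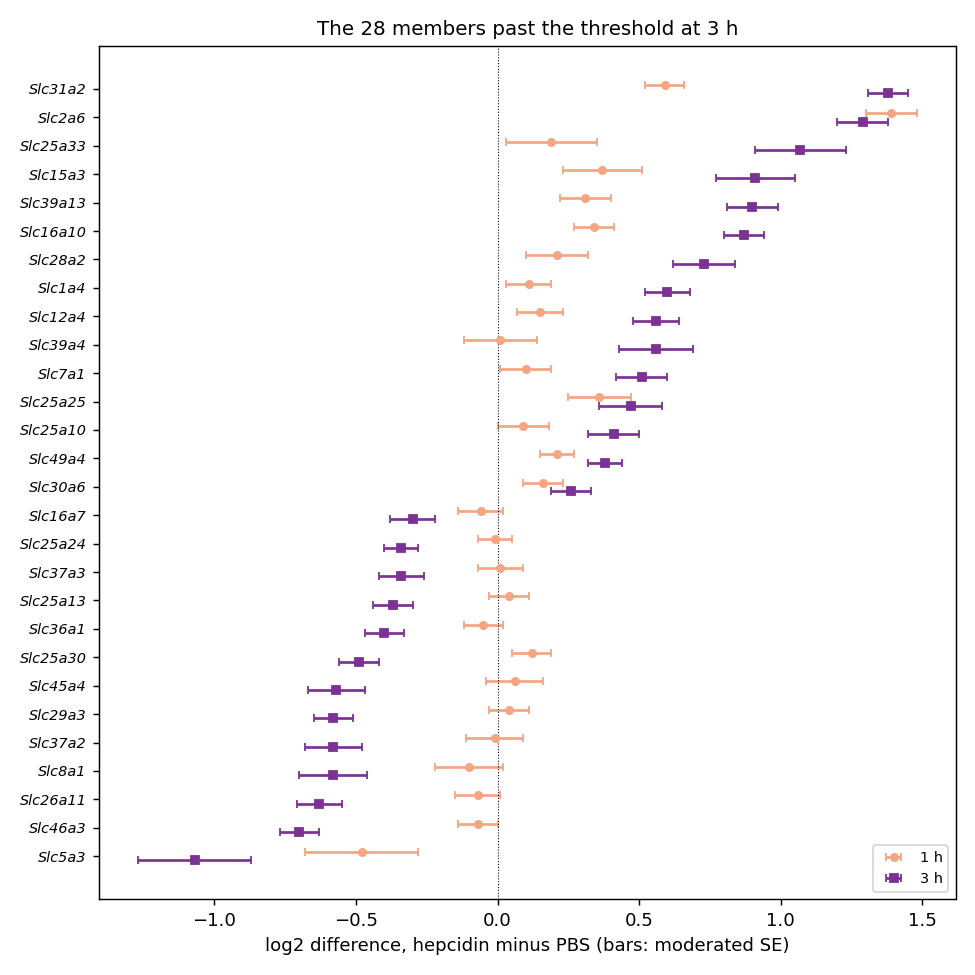
Log2 difference between hepcidin and PBS (x axis) at 1 h (circles) and 3 h (squares) for the 28 members past the threshold at 3 h, ordered by the 3 h value; bars are the moderated SE of limma. Slc2a6 lies at 1.39 at 1 h and 1.29 at 3 h, and most genes that fell lie near 0 at 1 h.

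The upstream sequence of some of these members is shown because genes that move together are often compared by the motifs before their starts. RefSeq promoter windows (build GRCm38.p6, from 250 bases before to 50 bases after each start) were given for 149 of the 191 members and 23 of the 28. The 250 upstream bases of the members with the largest rises, Slc31a2 and Slc2a6, and of Slc46a3 and Slc29a3, which fell at 3 h with a tested difference between the times, read 5′ to 3′ on the gene's strand as follows, with the antioxidant response element core in capitals where it occurs.
Slc31a2, chr4:62286179-62286428, + strand: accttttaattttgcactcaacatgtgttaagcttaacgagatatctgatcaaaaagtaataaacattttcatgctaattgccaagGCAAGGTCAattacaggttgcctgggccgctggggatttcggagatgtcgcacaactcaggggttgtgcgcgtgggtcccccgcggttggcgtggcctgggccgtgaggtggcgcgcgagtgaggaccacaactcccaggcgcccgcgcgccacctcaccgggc
Slc2a6, chr2:27027999-27028248, - strand: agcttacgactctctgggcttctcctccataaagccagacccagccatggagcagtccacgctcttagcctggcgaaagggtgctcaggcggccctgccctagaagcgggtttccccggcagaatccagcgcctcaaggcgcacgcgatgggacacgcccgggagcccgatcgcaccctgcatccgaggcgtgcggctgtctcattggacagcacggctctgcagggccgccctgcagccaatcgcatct
Slc46a3, chr5:147894816-147895065, - strand: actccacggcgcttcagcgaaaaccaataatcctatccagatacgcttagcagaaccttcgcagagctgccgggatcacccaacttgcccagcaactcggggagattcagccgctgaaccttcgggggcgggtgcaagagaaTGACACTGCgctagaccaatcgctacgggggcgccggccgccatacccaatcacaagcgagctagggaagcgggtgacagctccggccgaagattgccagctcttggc
Slc29a3, chr10:60752783-60753032, - strand: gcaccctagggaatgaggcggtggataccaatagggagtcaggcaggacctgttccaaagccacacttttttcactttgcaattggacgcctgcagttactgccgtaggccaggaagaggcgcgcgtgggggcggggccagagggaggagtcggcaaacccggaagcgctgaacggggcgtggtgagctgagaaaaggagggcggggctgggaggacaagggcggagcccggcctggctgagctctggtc
All motifs were searched on both strands of the 250 upstream bases. The core is TGACNNNGC, and the match before Slc31a2 lies on the opposite strand, 164 to 156 bases before the start. The match before Slc46a3 lies 108 to 100 bases before the start, and the upstream bases of Slc2a6 and Slc29a3 held none of the 5 motifs searched. Over all windows the core occurred in 6 of the 13 genes that rose and had a window (Slc25a25, Slc25a33, Slc31a2, Slc39a13, Slc49a4 and Slc7a1) and in 1 of 10 that fell. By window this is 37.5% of 16 and 9.09% of 11, beside 15.4% of 175 windows of the members not called, 16.8% of the windows of all members and 10.2% of all 32851 windows. A factor known to bind this element is encoded by Nfe2l2, whose RNA rose by 0.43 ± 0.06 at 3 h (adjusted p = 8.79e-04). Binding of its product at these genes was not measured, and a link to their changes was not tested. The E-box CACGTG occurred in 12.5% of the windows of genes that rose, 27.3% of those that fell, 13.9% of all members' and 6.02% of all windows. AP-1, TGANTCA, which can overlap the antioxidant core, occurred in 12.5%, 18.2%, 6.93% and 6.75% in the same order. The NF-kappaB consensus occurred in 12.5% (Slc25a10 and Slc49a4), 0%, 7.43% and 3.90% in this order, and in 7.43% of the windows of members not called. The C/EBP-ATF motif TGATGNAA occurred in 6.25%, 0%, 2.48% and 3.45%. These matches are letters in a window, some genes have several windows, and no test was made of the shares.

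Of 24 transporters of metals, 4 rose and 0 fell, so that 16.7% were called, beside 14.7% of all members and 9.63% of genes at or above the minimum, a share near that of all members. In this group 17 were higher and 7 lower, and the median difference at 3 h was 0.09, beside 0.02 over all genes. Besides Slc31a2, these were 3 zinc transporters. Slc39a13 encodes ZIP13, which releases zinc from vesicles and the Golgi, Slc39a4 encodes the zinc importer ZIP4, and Slc30a6 encodes a Golgi zinc transporter.

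Slc39a13 read 7.98, 7.90 and 7.97 with PBS and 8.72, 9.04 and 8.79 with hepcidin at 3 h, a rise of 0.90 ± 0.09 (adjusted p = 4.81e-05, 1.87-fold). At 1 h its 3 hepcidin arrays (8.11, 8.22 and 8.03) were also above its PBS arrays (7.72, 7.85 and 7.84), but the difference of 0.31 did not pass (adjusted p = 0.312). Slc39a4 was dim, at 5.23, 5.12 and 5.03 with PBS and 5.56, 5.86 and 5.64 with hepcidin, and rose by 0.56 ± 0.13 (adjusted p = 0.0214). Slc30a6 read 8.66, 8.61 and 8.70 against 8.85, 9.00 and 8.91, a rise of 0.26 ± 0.07 (adjusted p = 0.0405). Both of these last rises depended on single arrays. The adjusted p of Slc39a4 was 0.0562 to 0.0942 without PBS replicate 2 or 3 or without hepcidin replicate 2 or 3 of 3 h. That of Slc30a6 was over 0.05 in 10 of the 12 fits that left out 1 array, those without replicate 3 of PBS at 1 h and without replicate 1 of hepcidin at 3 h excepted, and reached 0.153.

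The other metal transporters differed by less. Members named here and below that did not pass were chosen after their values were seen. The copper importer gene Slc31a1, which stands near Slc31a2 on the chromosome with Fkbp15 between them, had a difference of 0.30 ± 0.10 (adjusted p = 0.129), with every hepcidin array higher, and Fkbp15 one of 0.03. Of 11 members of the Slc39 zinc importer family, 9 were higher at 3 h and 2 passed. Of 7 members of the Slc30 zinc exporter family, 5 were higher and 1 passed. The called shares, 18.2% and 14.3%, were near the 14.7% of all members, beside 9.63% of genes at or above the minimum. Of all 191 members, 98 were higher at 3 h. The metallothionein genes Mt1 and Mt2, which respond to free zinc and copper, differed by -0.05 and -0.06 (adjusted p = 0.774 and 0.823), and Mtf1, whose product senses zinc, by 0.14 (adjusted p = 0.394). Among the iron carriers left out of the members, Slc11a2 (DMT1) rose by 1.39 and Slc39a14 (ZIP14) by 0.62, and ferroportin, Slc40a1, differed by -0.14 (adjusted p = 0.324).

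**Figure D3:**
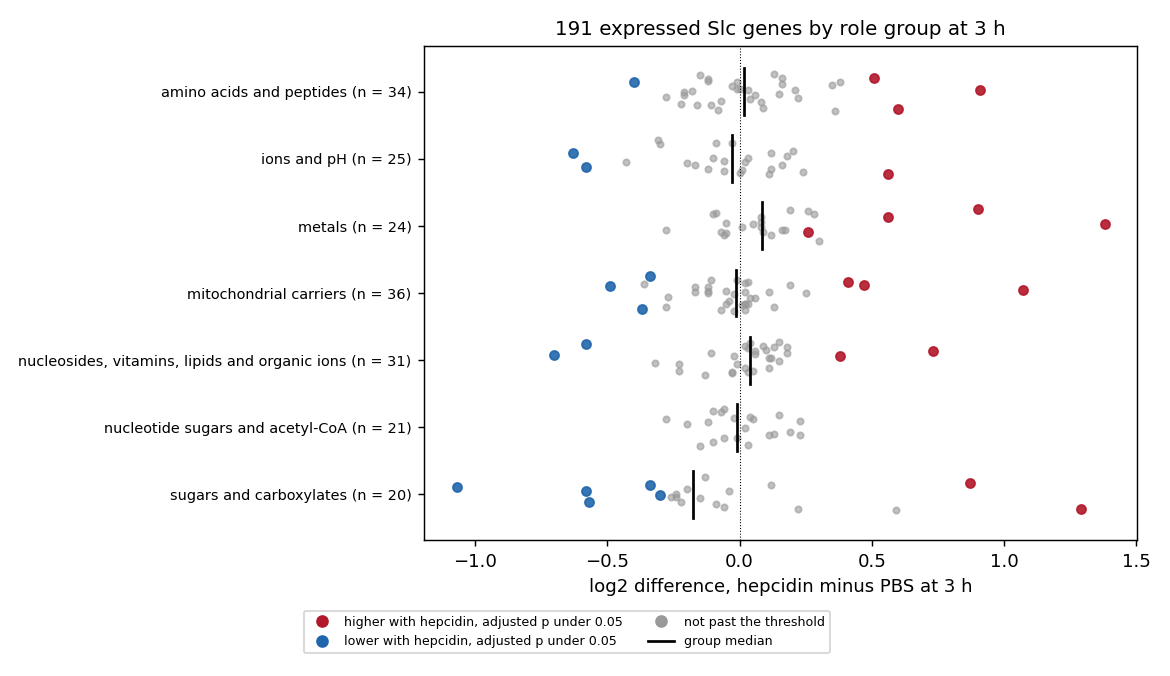
Log2 difference between hepcidin and PBS at 3 h (x axis) for each of the 191 members, by role group (y axis); colour marks members past the threshold in each direction, and the black bar is the group median. Called members of the metal group all lie above 0, 5 of the 7 called members of the sugar and carboxylate group lie below 0, and none of 21 nucleotide sugar and acetyl-CoA transporters was called.

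In the amino acid and peptide group of 34 members, 3 rose and 1 fell at 3 h, with a median of 0.02. The called share was 11.8%, beside 14.7% of all members and 9.63% of genes at or above the minimum. Slc15a3 encodes a lysosomal carrier of histidine and peptides. It read 7.09, 7.33 and 7.57 with PBS and 8.05, 8.30 and 8.38 with hepcidin, a rise of 0.91 ± 0.14 (adjusted p = 0.00169, 1.88-fold). Slc1a4, which encodes the neutral amino acid exchanger ASCT1, read 5.76, 5.84 and 5.70 against 6.32, 6.39 and 6.38, a rise of 0.60 ± 0.08 (adjusted p = 4.05e-04). Slc7a1 encodes CAT1, the importer of arginine and lysine. It read 8.35, 8.32 and 8.28 against 8.95, 8.69 and 8.84, a rise of 0.51 ± 0.09 (adjusted p = 0.00585). Its hepcidin level at 3 h was close to the PBS level at 1 h (8.80, 8.47 and 8.68), and PBS at 3 h was the lowest of the 4 groups.

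Slc36a1 encodes PAT1, which carries small amino acids out of lysosomes. It read 8.31, 8.32 and 8.21 with PBS and 7.81, 8.01 and 7.81 with hepcidin, a log2 difference of -0.40 ± 0.07 (adjusted p = 0.0051). Of 8 members with a Slc7 symbol, 6 were higher with hepcidin and 1 passed. This is 12.5%, beside 14.7% of all members and 9.63% of genes at or above the minimum. The light chains Slc7a5 (LAT1) and Slc7a7 differed by 0.36 and 0.35 without passing (adjusted p = 0.183 and 0.103). Among the carriers left out, Slc7a11, the light chain of the cystine and glutamate exchanger, rose by 2.95, and the heavy chain gene Slc3a2 had 0.18 (adjusted p = 0.128). Atf4, which encodes the factor of the amino acid response, rose by 0.30 ± 0.07 (adjusted p = 0.0214) against PBS at 3 h. Atf4 also fell between the PBS groups, with a log2 difference of -0.58.

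The 20 members of the sugar and carboxylate group had the lowest median of the role groups, -0.18, with 15 lower and 5 higher. Of these 20, 2 rose and 5 fell. The called share was 35%, beside 14.7% of all members and 9.63% of genes at or above the minimum, and it was not tested. The groups followed family numbers, so this one also holds Slc16a10, whose product TAT1 carries aromatic amino acids. Slc16a10 read 9.86, 9.92 and 10.00 with PBS and 10.83, 10.81 and 10.77 with hepcidin, a rise of 0.87 ± 0.07 (adjusted p = 7.01e-06, 1.83-fold). Its arrays were also apart at 1 h, where the difference of 0.34 had an adjusted p of 0.06.

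Slc5a3 had the largest fall. It encodes SMIT1, the sodium-coupled importer of myo-inositol, an osmolyte. It read 8.16, 7.84 and 7.93 with PBS and 7.36, 6.67 and 6.68 with hepcidin, a log2 difference of -1.07 ± 0.20 (adjusted p = 0.00583, 2.10-fold lower). The PBS arrays at 1 h read 7.24, 7.18 and 7.29 and the hepcidin arrays 7.09, 6.37 and 6.82. The PBS level was thus higher at 3 h than at 1 h, by 0.74 (adjusted p = 0.154), while the hepcidin levels differed by 0.14 (adjusted p = 0.789). Slc5a3 overlaps Mrps6 in the RefSeq annotation, and Mrps6 differed by -0.09 (adjusted p = 0.67) at 3 h.

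Members of the Slc37 family, sugar phosphate transporters of the endoplasmic reticulum and related membranes, were lower in 4 of 4 cases, 2 of them past the threshold. Of the 12353 genes at or above the minimum, 6509 were lower at 3 h, and 4.88% were called lower. This family of 4 was not tested as a set. Slc37a2 read 10.46, 10.54 and 10.56 with PBS and 9.79, 10.13 and 9.89 with hepcidin, a difference of -0.58 ± 0.10 (adjusted p = 0.00282). Slc37a3 had -0.34 ± 0.08 (adjusted p = 0.0228), and its call was lost without any 1 PBS array of 3 h or hepcidin replicate 2 or 3 of 3 h (adjusted p = 0.0554 to 0.0918). Its PBS level was higher at 3 h than at 1 h, by 0.39 (adjusted p = 0.0578), while the hepcidin levels differed by 0.04 (adjusted p = 0.858). Against PBS at 3 h, Slc37a1 and Slc37a4 had -0.24 and -0.13 (adjusted p = 0.296 and 0.468), the latter the glucose-6-phosphate translocase. Slc45a4 fell as well, with -0.57 ± 0.10 (adjusted p = 0.00438). The smallest fall, of Slc16a7 (MCT2, a pyruvate and lactate carrier), was named after its value was seen. It was -0.30 ± 0.08 (adjusted p = 0.0468) and was lost in 11 of the 12 fits that left out 1 array, all but that without hepcidin 3 h replicate 2, where the adjusted p was 0.0533 to 0.164. The glucose transporter gene Slc2a3 differed by -0.06 (adjusted p = 0.8), and Slc2a1, left out of the members, rose by 0.64. Bsg, whose product is a chaperone of lactate carriers, differed by -0.03 (adjusted p = 0.856). Emb, the gene of another such chaperone, had -0.26 with every hepcidin array below the PBS arrays, and did not pass (adjusted p = 0.125).

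The 36 mitochondrial carriers, all of family 25, split evenly, with 3 risen, 3 fallen and a median of -0.01. The called share was 16.7%, beside 14.7% of all members and 9.63% of genes at or above the minimum. Slc25a33 encodes a carrier of pyrimidine nucleotides. It read 4.85, 4.90 and 4.94 with PBS and 5.98, 6.31 and 5.61 with hepcidin, a rise of 1.07 ± 0.16 (adjusted p = 0.00131, 2.10-fold). It is one of the dimmest members, and the SD of its hepcidin arrays was 0.35. The ATP-magnesium and phosphate carriers Slc25a25 and Slc25a24 moved apart. Slc25a25 read 5.79, 5.55 and 5.68 with PBS against 6.01, 6.11 and 6.30 and rose by 0.47 ± 0.11 (adjusted p = 0.024), and Slc25a24 read 10.29, 10.18 and 10.30 against 9.91, 9.91 and 9.94 and fell, with -0.34 ± 0.06 (adjusted p = 0.00427). Slc25a10, the dicarboxylate carrier gene, rose by 0.41 ± 0.09 (adjusted p = 0.0154).

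Single arrays of 3 h decided part of these rises. The call of Slc25a25 was lost without PBS replicate 2 or 3 or hepcidin replicate 2 or 3 (adjusted p = 0.0541 to 0.108). That of Slc25a10 was lost without PBS replicate 2 or 3 or hepcidin replicate 2 (adjusted p = 0.0576 to 0.0604). Slc25a25 overlaps Naif1, which had 0.18 (adjusted p = 0.234). Slc25a30, an inner membrane carrier, read 8.44, 8.56 and 8.57 with PBS and 8.04, 8.10 and 7.96 with hepcidin, a difference of -0.49 ± 0.07 (adjusted p = 0.0011). Slc25a13, the citrin gene, whose product exchanges aspartate for glutamate, read 8.76, 8.73 and 8.85 against 8.45, 8.45 and 8.34, a difference of -0.37 ± 0.07 (adjusted p = 0.00848).

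In the mixed group of 31 carriers of nucleosides, vitamins, lipids and organic ions, 2 rose and 2 fell, with a median of 0.04. The called share was 12.9%, beside 14.7% of all members and 9.63% of genes at or above the minimum. Slc46a3 encodes a lysosomal membrane carrier. It read 9.23, 9.19 and 9.16 with PBS and 8.41, 8.62 and 8.46 with hepcidin, a difference of -0.70 ± 0.07 (adjusted p = 3.93e-05, 1.62-fold lower). Its PBS level was higher at 3 h than at 1 h, by 0.46 (adjusted p = 0.0134), while the hepcidin levels differed by -0.17 (adjusted p = 0.225). Slc29a3 encodes ENT3, which carries nucleosides out of lysosomes. It read 10.01, 10.02 and 10.06 against 9.36, 9.56 and 9.44, a difference of -0.58 ± 0.07 (adjusted p = 4.11e-04). In both genes all 3 hepcidin arrays of 3 h were below the 9 other arrays.

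Slc28a2, a sodium-coupled importer of purine nucleosides, read 6.90, 7.25 and 7.07 with PBS and 7.72, 7.88 and 7.81 with hepcidin, a rise of 0.73 ± 0.11 (adjusted p = 0.00184). Its neighbour Slc28a2b is a gene of the same family that its probes may not tell apart, so the assignment is uncertain, and Slc28a2b had 0.08 (adjusted p = 0.85). Slc49a4, a lysosomal membrane protein gene, read 8.36, 8.39 and 8.36 against 8.67, 8.81 and 8.76, a rise of 0.38 ± 0.06 (adjusted p = 0.00301). The sialic acid exporter gene Slc17a5 had -0.32 (adjusted p = 0.0559) with no overlap of the arrays, and did not pass.

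In the ion and proton group of 25 members, 1 rose and 2 fell, with a median of -0.03. The called share was 12%, beside 14.7% of all members and 9.63% of genes at or above the minimum. Slc12a4, which encodes the potassium and chloride cotransporter KCC1, read 7.78, 7.85 and 7.77 with PBS and 8.37, 8.32 and 8.41 with hepcidin, a rise of 0.56 ± 0.08 (adjusted p = 0.00116). Slc26a11, a gene of an anion exchanger family, read 6.06, 6.06 and 6.08 against 5.48, 5.39 and 5.43, a difference of -0.63 ± 0.08 (adjusted p = 4.05e-04). It overlaps Sgsh, a lysosomal sulfatase gene, whose difference was -0.49 ± 0.14 (adjusted p = 0.0712), and the deposited values do not tell how the probes of the pair are separated. Slc8a1, the sodium and calcium exchanger gene NCX1, read 6.83, 6.74 and 6.98 against 6.39, 6.22 and 6.21, a difference of -0.58 ± 0.12 (adjusted p = 0.0154). That call was lost without PBS replicate 3 or hepcidin replicate 2 or 3 of 3 h (adjusted p = 0.054 to 0.0769). Of 8 members with a Slc9 symbol, the number of the sodium and proton exchanger family, 7 were lower and 0 passed. An unadjusted p under 0.05 was found for 2 of the 8. The 7 lower ones include Slc9a3r1 (-0.12) and Slc9a3r2 (-0.10), which encode no exchanger.

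None of the 21 transporters of nucleotide sugars and acetyl-CoA, which serve the Golgi and endoplasmic reticulum, passed at 3 h by limma. The called share was 0%, beside 14.7% of all members and 9.63% of genes at or above the minimum. Of the 21, 4 had an unadjusted p under 0.05. Their differences ran from -0.28 in Slc35f5 (adjusted p = 0.215) to 0.23, with 10 higher, 11 lower and a median of -0.01. The other 4 comparisons also gave 0 calls each, with 1 to 3 members at an unadjusted p under 0.05. In those 4 comparisons, 0.89% to 9.35% of genes at or above the minimum were called. No test was made of a difference between this group and the others.

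The change with time in the control cells gives the background to the change with time under hepcidin, and these comparisons share no arrays. Between PBS at 3 h and PBS at 1 h, 1 member rose and 3 fell, 2.09% of the members beside 0.45% of all named genes and 0.89% of those at the minimum (0.413% higher and 0.478% lower). The groups did not overlap for 50 members (26.2%), near the 25.8% of genes at the minimum. Slc46a3 rose from 8.72, 8.71 and 8.77 to 9.23, 9.19 and 9.16 (0.46 ± 0.07, adjusted p = 0.0134). Slc7a8, the gene of the light chain LAT2, went from 11.20, 11.00 and 11.19 to 10.64, 10.61 and 10.61, a difference of -0.51 ± 0.07 (adjusted p = 0.00954).

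The other falls between the PBS groups were of Slc20a1, a phosphate importer gene (-0.37 ± 0.06, adjusted p = 0.0323), and of Slc38a2, the gene of the neutral amino acid importer SNAT2 (-0.34 ± 0.07, adjusted p = 0.0483). None of these 4 calls was kept in all 12 fits that left out 1 array. None was left when replicate 1 or 3 of PBS at 1 h, or replicate 2 or 3 of PBS at 3 h, was left out. With replicate 2 of PBS at 1 h or replicate 1 of PBS at 3 h left out 1 remained, and leaving out Hepcidin 1 h replicate 1 gave 5. In a fit of the PBS groups alone, 0 members passed.

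Between hepcidin at 3 h and hepcidin at 1 h, 10 members rose and 15 fell, 13.1% beside 5.05% of all named genes and 9.35% of those at the minimum (4.27% higher and 5.08% lower). The groups did not overlap for 68 members (35.6%), against 29.1% of those genes. The neutrophil marker Mpo fell in the same comparison (log2 difference -0.62, adjusted p = 0.0274), as did the macrophage markers Mertk (-1.28) and Fcgr1 (-0.60), while Cd14 rose by 0.71 and Spi1 by 0.30. Their part in the members' changes was not tested. The rises were of Slc31a2 by 0.89, Slc39a4 by 0.79, Slc39a13 by 0.73, Slc6a9 by 0.72, Slc25a33 by 0.69, Slc28a2 by 0.51, Slc12a4 by 0.49, Slc16a10 by 0.46 and 2 more. All but Slc6a9 of these 8 had also risen against PBS at 3 h. Slc6a9, which encodes the glycine transporter GlyT1, read 6.88, 6.99 and 6.76 with hepcidin at 1 h and 7.75, 7.49 and 7.55 at 3 h. Its PBS arrays moved alike, from 6.82, 6.84 and 7.13 to 7.66, 7.29 and 7.40 (0.52, adjusted p = 0.0852), and it did not differ from PBS at 3 h beyond the threshold (0.15, adjusted p = 0.596).

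The 8 largest falls of the hepcidin arrays with time included Slc26a11 (-0.64), Slc37a2 (-0.63), Slc45a4 (-0.55), Slc29a3 (-0.53) and Slc25a13 (-0.52), which had also fallen against PBS at 3 h. The other 3 were Slc20a2, a phosphate importer gene (-0.55), Slc16a6 (-0.53) and the creatine importer gene Slc6a8 (-0.53). Slc20a2 had nearly the same difference between the PBS groups, -0.56, which missed the threshold there (adjusted p = 0.0578). Slc7a8 and Slc38a2 were the members called in both comparisons, both lower at 3 h (-0.40 and -0.27 under hepcidin). Without 1 array, 18 to 26 of the 191 members were called, 18 without Hepcidin 1 h replicate 2 or 3. Of the named genes Slc38a2, Slc20a2, Slc6a8, Slc28a2 and Slc25a33 lost their call in some of these fits. The call of Slc38a2 was lost in 8 of the 12 fits (adjusted p = 0.0507 to 0.114), those in which any array of Hepcidin at 1 h, replicate 2 of PBS at 1 h, or replicate 2 or 3 of either group at 3 h was left out. For Slc20a2 these were the fits without Hepcidin 1 h replicate 2 or 3 (adjusted p = 0.0624 and 0.0501). For Slc6a8 they were those without these arrays or Hepcidin 3 h replicate 1 (0.0827 to 0.0971). For Slc28a2 they were those without Hepcidin 1 h replicate 1 or 2 or Hepcidin 3 h replicate 2 or 3 (0.0615 to 0.1). For Slc25a33 they were those without Hepcidin 1 h replicate 2 or 3 or Hepcidin 3 h replicate 1 or 2 (0.0617 to 0.111).

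**Figure D4:**
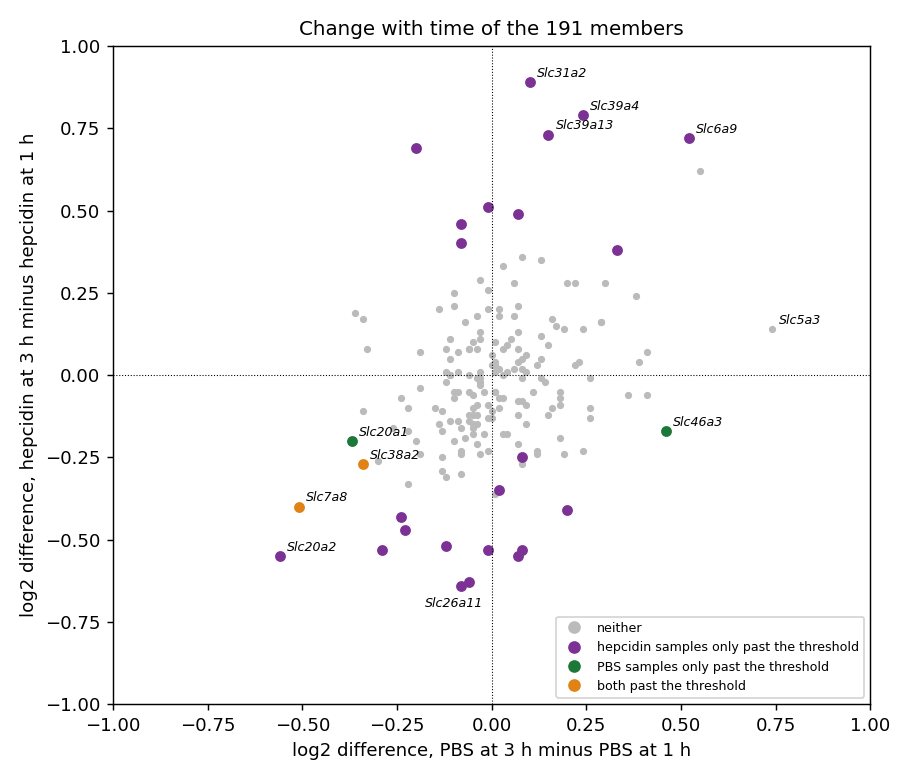
Log2 difference between 3 h and 1 h in PBS arrays (x axis) and in hepcidin arrays (y axis) for the 191 members; colour marks which of these comparisons passed the threshold. Slc7a8 and Slc38a2 passed in both, while Slc31a2 (0.10 and 0.89) and Slc26a11 (-0.08 and -0.64) lie near 0 on the PBS axis.

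The difference between the hepcidin effects at 3 h and 1 h was tested for every gene. It passed for 7 members, 3.66% beside 1.03% of all named genes and 1.87% of those at the minimum (0.874% higher and 0.996% lower), with 37 members at an unadjusted p under 0.05. The effect was higher at 3 h for Slc31a2 (0.79 ± 0.10) and Slc16a10 (0.54 ± 0.10, adjusted p = 0.0214). It was lower at 3 h for Slc46a3 (-0.62 ± 0.09, adjusted p = 0.00902), Slc29a3 (-0.62 ± 0.10, adjusted p = 0.0149), Slc25a30 (-0.61 ± 0.10, adjusted p = 0.0122), Slc26a11 (-0.56 ± 0.11, adjusted p = 0.0403) and Slc16a6 (-0.52 ± 0.11, adjusted p = 0.0471). Slc16a6, a gene of the monocarboxylate carrier family, was the one whose effect changed side without passing at either time. It read 6.39, 6.61 and 6.59 with PBS against 6.81, 6.81 and 6.74 with hepcidin at 1 h, and 6.47, 6.5 and 6.6 against 6.28, 6.32 and 6.18 at 3 h. Its differences were 0.25 (adjusted p = 0.387) and -0.26 (adjusted p = 0.0767), and at both times the arrays did not overlap.

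Of these 7 calls, Slc31a2, Slc46a3, Slc29a3 and Slc25a30 were kept in each of the 12 fits that left out 1 array. Slc16a6 lost its call in all 12 (adjusted p = 0.0623 to 0.135) and Slc26a11 in 11 of the 12 (0.0558 to 0.115), all but that without Hepcidin 1 h replicate 1. Slc16a10 lost it when replicate 2 or 3 of either group at 1 h, or replicate 1 or 2 of PBS at 3 h, was left out (adjusted p = 0.0571 to 0.0677). The count was 4 without PBS 1 h replicate 3, Hepcidin 1 h replicate 2, PBS 3 h replicate 1 or PBS 3 h replicate 2. For Slc12a4, Slc28a2, Slc25a33 and Slc39a13 the difference was above 0 but did not pass (adjusted p = 0.164, 0.232, 0.113 and 0.0508).

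Other transporter genes at the same PBS minimum were counted for comparison. Of 29 ABC transporters, which pump with ATP, 3 rose and 4 fell at 3 h with a median of -0.01. These calls are 24.1%, beside 14.7% of the solute carrier members and 9.63% of genes at or above the minimum. Abcd2, a peroxisomal fatty acid transporter gene, had -1.30 ± 0.06 (adjusted p = 1.41e-07) and Abcc1 0.53 ± 0.06 (adjusted p = 1.07e-04). Of 4 Slco genes, Slco3a1 rose by 1.55 ± 0.10 (adjusted p = 9.96e-07). Of 25 partner and regulator genes on the array, 3 rose at 3 h, Nfe2l2, Atf4 and Tfe3 (0.29 ± 0.08, adjusted p = 0.0489), the last a factor of lysosomal genes, and 0 fell. The related Tfeb had -0.08 (adjusted p = 0.678). The called share of these 25 genes, a list without a PBS minimum, was 12%, beside 5.33% of all named genes. No test was made of a difference between these lists and the solute carriers.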

How the data were processed

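RNA of 12 samples was read on Affymetrix whole-transcript arrays with 25429 probe sets. The authors deposited log2 values: RMA and Partek, without versions, are the tools in the submitters' processing notes, no label writes the log base, and log2 was taken from the range of the values and from RMA. Precision is limited by the number of arrays (median SE of a difference 0.10). Each of 24675 named genes had 1 probe set, and 754 probe sets without a name were left out. All genes were fitted with limma 3.58.1 (R 4.3.3) as 4 group means with 8 residual and 4.11 prior degrees of freedom, without a filter, and p-values were adjusted by Benjamini and Hochberg over all named genes in each of 5 comparisons. The procedure was tested on simulated data with independent samples and log2 changes larger than most reported here. That run does not cover smaller changes or effects shared by samples with the same replicate number. Errors with ± are moderated SEs. RefSeq promoter windows were read with Python 3.11.15 and pandas 2.3.3.

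The members, role groups (by family number) and lists were chosen with earlier results of these data known. Named are members past the threshold, up to 12 per direction against PBS and 8 in the other comparisons, up to 4 per role group, those at the PBS minimum, the 7 genes left out, and partner genes past the threshold at 3 h. Samples with the same replicate number were not treated as paired, since no label says that the number marks a shared culture. Of 18 correlations of their deviations, 9 were over 0.1, which does not show that they are independent. A fit with the number as a block is therefore given among the alternatives. Alternatives were the replicate block, a trended and robust prior, median centring, repeated quantile normalization, a filter on low values, all probe sets, the compared groups alone, other PBS minima, other thresholds and each array left out.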

Additional observations from a re-analysis of the deposited data

Results flagged for a closer look

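In 9 genes the effect of hepcidin at 3 h differed from that at 1 h by limma's test of the difference (adjusted p under 0.05). Among the members, it was higher at 3 h in Slc31a2 (0.79) and Slc16a10 (0.54). It was lower at 3 h in Slc46a3 (-0.62), Slc29a3 (-0.62), Slc25a30 (-0.61), Slc26a11 (-0.56) and Slc16a6 (-0.52). Of these 7 calls, 3 were lost in some fits that left out 1 array. Slc16a6 lost its call in every such fit, Slc26a11 in most and Slc16a10 in several. Those of Slc16a6 and Slc26a11 were also lost with the replicate number as a block. Of the carriers left out of the members, Slc7a11 (2.60, adjusted p = 4.17e-04) and Slc11a2 (0.66, adjusted p = 0.0484) were higher at 3 h.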

How the results depend on the processing

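No result reversed under any setting. For hepcidin against PBS, 2 members were called at 1 h in the main fit and 2 or 3 under each alternative, and 2 in each fit without 1 array. At 3 h, 28 were called, 24 to 40 under the alternatives that kept the threshold or relaxed it, 11 with a minimum of 1.5-fold, and 21 to 28 without 1 array, lowest without PBS 3 h replicate 3. The replicate number as a block gave 37 at 3 h, 3 at 1 h, 31 for hepcidin with time, 8 for the difference of effects and 8 for PBS with time, with Slc16a6 and Slc26a11 lost among the 7 differences. The block thus gave more calls than the main fit in every comparison. Deviations of same-numbered samples correlated at -0.00542 to 0.246, with 9 of 18 over 0.1. This check does not show that same-numbered samples are independent, and no label says what the number marks. Between the PBS groups (4 calls) there were 9 with a trended and robust prior, 2 with median centring (1 higher, 1 lower), 10 with the filter on low values, 0 with these groups alone, 7 at an adjusted p under 0.1, 0 at 1.5-fold, and 0 to 5 without 1 array. For hepcidin with time (25 calls) there were 38 with the filter, 15 with these groups alone, 7 at 1.5-fold, and 18 to 26 without 1 array. For the difference of effects (7 calls) there were 11 with the trended prior, 14 with the filter, 11 at an adjusted p under 0.1, 4 at 1.5-fold, and 4 to 6 without 1 array. Repeated quantile normalization gave 9 of them, 4 higher and 5 lower, and the fit of only the groups compared cannot give this difference. The filter tests fewer genes, and the cause of the other changes was not tested. Dim members such as Slc25a33 lie close to the array medians.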

Other observations

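Of the members named above, those known from the lysosomal membrane went both ways at 3 h. This grouping was made after the values were seen and is given without a test. Slc2a6 (1.29), Slc15a3 (0.91) and Slc49a4 (0.38) rose. Slc46a3 (-0.70), Slc29a3 (-0.58) and Slc36a1 (-0.40) fell, and Slc17a5 (-0.32) did not pass. The list is not complete, since lysosomal members without a marked change were not gathered. Slc15a4, of the same family as Slc15a3, differed by 0.16 (adjusted p = 0.318). Slc46a3, which fell, and Slc7a1, which rose, lie on either side of Mtus2 in the RefSeq annotation, and Mtus2 itself had -0.08 (adjusted p = 0.812). Slc39a13 stands next to Spi1, the gene of a myeloid transcription factor, and both rose, by 0.90 and 0.30.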
